A study of Mus musculus with 16 samples.

Results

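The transcription factor Rest, its corepressors Rcor1 and Rcor2, the granin genes Chga, Chgb, Scg2, Scg3 and Vgf, and the neuronal genes Celsr3 and Bdnf were followed in differentiating neural stem cells (NSC). These 10 genes were taken by symbol from the tables of both days, and each stood on a line of its own among the 55365 lines that name the same gene on both days. RNA-seq libraries were available for 16 cultures of NSC from E15-16 cortices of C57BL/6 mice, pooled over embryos of both sexes. One day after seeding the cells had received a lentivirus with a scrambled shRNA (shRNA CON) or with 1 shRNA against the long non-coding RNA RUS (shRNA RUS), and differentiation was started by the change to Neurobasal medium 5 days after seeding. Each shRNA had 4 cultures sequenced on day 5 and 4 on day 7. All groups thus shared the viral transduction and the strain, and each arm rests on a single shRNA. RUS is annotated as Gm20754 (chr3:73066316-73594830, + strand).

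REST is a zinc finger repressor that binds the RE1 element of neuronal genes in stem cells and non-neural cells. Its amino-terminal domain recruits SIN3 with histone deacetylases, and its carboxy-terminal domain recruits RCOR1 (CoREST) with the demethylase KDM1A and further histone deacetylases. RCOR2 is the related corepressor that is prominent in embryonic and neural progenitors. In the usual course of neurogenesis Rest is switched off and its targets, among them granins, synaptic and axonal genes, are released. The question asked of the data was whether these targets were lower where Rest was higher.

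The RE1 element is shown first, since it is the sequence by which REST finds a gene. The motif was written as a left block, TTCAGCACC, and a right block, GGACAGCGC, with 2 bases between them, and both strands were searched in windows from 250 bases before to 50 bases after the RefSeq gene starts (GRCm38.p6). A match had at most 3 mismatches in the 18 letters of the blocks. Windows were at hand for 8 of the 10 genes (all but Rest and Vgf) and for 18 of 26 further RE1 target genes. Of the 8, Celsr3 held a match, with 2 mismatches, from 108 to 127 bases before its start. Among all 27025 genes with such a window, 36 (0.133%) held one. A wider search with 0 to 9 bases between the blocks, which was chosen after the windows had been seen, added Scg2: its blocks directly abut, with 1 mismatch, and lie across the RefSeq start. The gene bounds printed with the members come from the GENCODE annotation (GRCm38) and differ from RefSeq: there Scg2 starts farther upstream, so that the match lies inside the gene, and Celsr3 starts farther downstream of its match. This wider search found a match in 0.474% of genes. Among the further RE1 targets Gria2, Syn1 and Chrm4 held the motif with 2 bases between the blocks, and Unc13a held both blocks without a mismatch but 8 bases apart. The matches read as follows on the strand of the motif, with the blocks in capitals.

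Celsr3, chr9:108825918-108825937, + strand: TTCAGCACCgtGGGCAGCAC
Scg2, chr1:79440025-79440042, + strand: TTCAGCACCGGACAGCTC
Gria2, chr3:80802989-80803008, + strand: TTTAGCACCgcGGACAGCGC
Syn1, chrX:20921131-20921150, - strand: TTCAGCACCgcGGTCAGAGC
Chrm4, chr2:91921976-91921995, - strand: TCCAGCACCgaGGGCACCGC
Unc13a, chr8:71671727-71671752, + strand: TTCAGCACCgggggcgcGGACAGCGC

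For the members with a match, the bases before the start are given on the strand of the gene, with the blocks in capitals, so that the setting of the element can be seen. In Scg2 the element reads on the opposite strand and ends the printed stretch, and in Celsr3 it lies in the middle of it.

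Celsr3, chr9:108825795-108826044, + strand: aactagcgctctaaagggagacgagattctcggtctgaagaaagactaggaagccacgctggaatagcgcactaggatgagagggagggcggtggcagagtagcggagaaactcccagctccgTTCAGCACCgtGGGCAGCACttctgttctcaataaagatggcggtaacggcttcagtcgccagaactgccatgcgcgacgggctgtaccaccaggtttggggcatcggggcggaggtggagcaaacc
Scg2, chr1:79440025-79440276, - strand: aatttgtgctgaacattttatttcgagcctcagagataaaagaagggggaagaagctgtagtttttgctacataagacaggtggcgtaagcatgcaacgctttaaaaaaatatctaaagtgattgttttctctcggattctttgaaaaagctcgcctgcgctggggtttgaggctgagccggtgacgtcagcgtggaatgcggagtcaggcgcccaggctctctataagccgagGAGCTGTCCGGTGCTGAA

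The windows of Chga, Chgb, Scg3, Rcor1, Rcor2 and the 7 windows of Bdnf held no match with 0 to 9 bases between the blocks. Their best alignments in this wider search had from 5 to 7 mismatches. A match describes letters only, and a window without one tells nothing of elements farther away.

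TPM (a share of the transcripts of a library, corrected for their length) was divided by a library factor that brings the typical gene to the same level in all libraries of a comparison. On day 5 these factors went with the shRNA, between 1.02 and 1.11 in shRNA CON and between 0.920 and 1.01 in shRNA RUS. On day 7 all 8 lay between 0.991 and 1.01. With TPM as deposited the median over all genes of the day 5 log2 fold change was -0.21, against -0.06 after scaling, so day 5 differences of this size depend on the scaling. Between 25612 and 29126 genes had a TPM above 0, and the number of reads behind a library is unknown. Gm20754 itself was near the floor of the assay. On day 5 its scaled TPM was 0.162 ± 0.0447 (SD, n = 4) in controls and 0.125 ± 0.139 with the knockdown, and on day 7 it was 0.556 ± 0.214 and 0.241 ± 0.264. Neither difference passed the test (limma with Benjamini-Hochberg adjustment, adjusted p = 0.519 and 0.114). The groups overlapped on both days, so the polyA libraries do not by themselves show the depletion. The paper reports reduced RUS levels with this shRNA from RT-qPCR.

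The replicate libraries are cultures that the labels number from 1 to 4, with no statement on separate isolations, so p-values measure the spread between these cultures. A gene is called higher or lower where the adjusted p of limma's moderated test over all genes is below 0.05. Levels are scaled TPM, and fold changes are log2 differences with shRNA RUS over shRNA CON unless stated. For single genes an exact two-sided permutation test over the 70 arrangements of 4 against 4 libraries was run as well, whose smallest possible p is 0.0286. Every pair of groups described as not overlapping below reached that value.

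Rest rose with time and was higher in shRNA RUS on both days. The gene lies at chr5:77265491-77286432, + strand (GRCm38, as for all positions). On day 5 its level was 5.67, 5.23, 5.24 and 5.21 in shRNA CON and 6.16, 6.33, 6.24 and 8.16 in shRNA RUS. The groups did not overlap, and the highest library, replicate 4 of shRNA RUS, stood well above the others of its group. The difference was 0.32 (SE 0.10, adjusted p = 0.0393), a ratio of means of 1.26. It is the least secure of the Rest results, since the call was lost in 11 of 17 alternative analyses, in which the log2 fold change ran from 0.16 to 0.46.

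On day 7 Rest was at 8.06, 8.41, 8.95 and 8.57 in shRNA CON and at 13.7, 14.6, 14.5 and 14.6 in shRNA RUS. Each knockdown library lay far above each control library. The mean was 8.50 ± 0.367 against 14.3 ± 0.456 (SD, n = 4), a ratio of 1.69 and a log2 fold change of 0.75 (SE 0.05, adjusted p = 3.66e-06), and the call held in all 17 alternatives. On 1 scale for all 16 libraries the order of the groups was shRNA CON on day 5 (5.81 ± 0.257), shRNA RUS on day 5 (7.30 ± 1.05), shRNA CON on day 7 (7.87 ± 0.344) and shRNA RUS on day 7 (13.1 ± 0.379). The middle groups overlapped, at 6.71 to 8.87 and 7.45 to 8.27, while the first and the last stood apart from all others.

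Rcor1 and Rcor2 went separate ways. Rcor1, the CoREST scaffold that links REST to KDM1A (chr12:111039351-111115901, + strand), measured 10.9, 9.41, 9.09 and 8.52 in shRNA CON and 8.36, 8.27, 8.26 and 10.1 in shRNA RUS on day 5. The groups overlapped, and the log2 fold change was -0.11 (adjusted p = 0.418). Replicate 4 of shRNA RUS, which was high for Rest, was also the highest of its group for Rcor1. This library differed more widely: its library factor was 1.01, against 0.920 to 0.939 in the others of its group. Its Gm20754 level, near the floor, was 0.317, above the 0.107 to 0.216 of the controls. Without it 3929 genes were called higher and 4593 lower on day 5, against 3349 and 4034 with it. On day 7 Rcor1 was at 14.6, 14.4, 14.2 and 12.6 in shRNA CON and at 17.7, 18.2, 16.6 and 17.8 in shRNA RUS. Here the groups were apart, with a log2 fold change of 0.33 (SE 0.06, adjusted p = 0.00127).

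Rcor2 (chr19:7267325-7275225, + strand) was lower in shRNA RUS on both days. On day 5 it measured 17.2, 14.6, 16.3 and 18.8 in shRNA CON and 10.4, 11.4, 11.2 and 10.3 in shRNA RUS. On day 7 the values were 20.6, 19.4, 18.8 and 17.4 against 13.7, 14.1, 12.5 and 16.2. The groups did not overlap on either day. The log2 fold change was -0.62 (SE 0.09, adjusted p = 6.33e-04) on day 5 and -0.43 (SE 0.08, adjusted p = 0.00207) on day 7, and both calls held in all 17 alternatives. In controls Rcor2 was the more abundant of the corepressors by TPM on both days, with 16.7 against 9.47 for Rcor1 on day 5 and 19.0 against 13.9 on day 7. In shRNA RUS on day 7 that order was inverted, with 14.1 for Rcor2 and 17.6 for Rcor1.

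**Figure D1:**
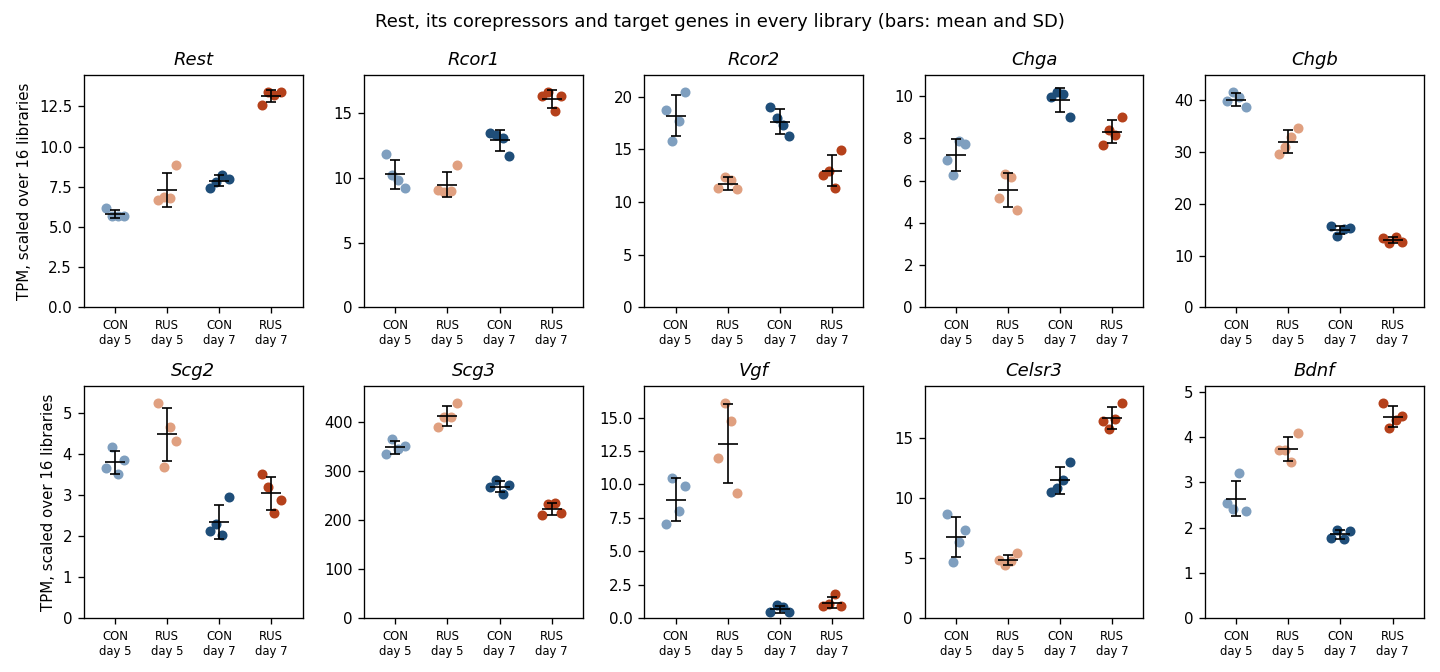
Level of each of the 10 genes in all 16 libraries, as TPM scaled over the 16 libraries, with 1 point for a library and the mean ± SD of each group of 4 as bars, grouped by shRNA (CON, RUS) and day. Rest reaches 12.6 to 13.4 in shRNA RUS on day 7 and at most 8.87 elsewhere, while Vgf falls from 7.02 to 16.1 on day 5 to under 2 on day 7.

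The granins, acidic proteins that are packed into dense-core vesicles and cut into peptides, moved in different directions. Chga and Chgb were lower in shRNA RUS on both days, Scg3 was higher on day 5 and lower on day 7, and Scg2 and Vgf had higher means in shRNA RUS on both days, each passing the test on 1 day. No granin exceeded a log2 fold change of 0.38 in size among those that passed on day 7.

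Chgb encodes chromogranin B (chr2:132781278-132795079, + strand). On day 5 it was at 36.4, 38.3, 37.4 and 35.6 in shRNA CON and at 27.2, 28.6, 30.3 and 31.8 in shRNA RUS. On day 7 it was at 16.9, 15.0, 16.3 and 16.4 against 14.5, 13.6, 14.9 and 13.7. The groups were apart on both days, though on day 7 by a narrow gap. The difference was -0.33 (SE 0.06, adjusted p = 0.00321) on day 5 and -0.19 (SE 0.06, adjusted p = 0.0200) on day 7. The day 7 call was lost without replicate 1 of shRNA CON, without replicate 2 or without replicate 4 of shRNA RUS, with adjusted p up to 0.0589.

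Chga encodes chromogranin A (chr12:102554969-102565028, + strand). It ranged from 5.75 to 7.26 in shRNA CON and from 4.25 to 5.82 in shRNA RUS on day 5, and from 9.65 to 11.0 and from 8.36 to 9.82 on day 7. On each day the highest knockdown library lay just above the lowest control. On the log2 scale this was -0.37 (SE 0.12, adjusted p = 0.0442) on day 5 and -0.22 (SE 0.07, adjusted p = 0.0249) on day 7. The exact permutation p was 0.0571 on both days. The limma call was lost in 9 of 17 alternatives on day 5 and in 7 of 17 on day 7, with no change of sign.

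Scg3 binds chromogranin A and the vesicle membrane and was by far the most abundant granin here (chr9:75643189-75684056, - strand). On day 5 it was at 306, 337, 319 and 323 in shRNA CON and at 359, 380, 379 and 404 in shRNA RUS. On day 7 it was at 290, 304, 275 and 291 in shRNA CON and at 229, 254, 258 and 234 in shRNA RUS. The groups were apart on both days but in opposite order. The log2 fold change was 0.24 (SE 0.05, adjusted p = 0.00797) on day 5 and -0.25 (SE 0.05, adjusted p = 0.00187) on day 7. The day 5 call was lost with TPM as deposited (0.08, adjusted p = 0.335) and with 2 other scalings, while the day 7 call held in all 17 alternatives.

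Scg2, the precursor of secretoneurin (chr1:79434669-79440120, - strand), ranged from 3.23 to 3.83 in shRNA CON and from 3.42 to 4.81 in shRNA RUS on day 5, which gave 0.23 on the log2 scale (adjusted p = 0.173). On day 7 it measured 2.29, 2.48, 2.20 and 3.17 against 3.82, 3.48, 2.82 and 3.14. Replicate 4 of shRNA CON lay within the range of the knockdown libraries, and the others lay below it. The log2 fold change was 0.38 (SE 0.14, adjusted p = 0.0482), with an exact permutation p of 0.0857, and the call was lost in 11 of 17 alternatives.

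Vgf, the neurotrophin-inducible granin (chr5:137026392-137033351, + strand), ranged from 6.42 to 9.66 in shRNA CON and from 8.64 to 14.9 in shRNA RUS on day 5. It had dropped to 0.505, 1.03, 0.873 and 0.492 in shRNA CON and to 1.02, 1.12, 1.99 and 0.971 in shRNA RUS on day 7. The groups overlapped on both days. The log2 fold change was 0.55 (SE 0.18, adjusted p = 0.0481) on day 5, a call lost in 12 of 17 alternatives. On day 7 it was 0.74 (SE 0.29, adjusted p = 0.0624), which did not pass the test. Vgf was called higher on day 7 in 3 of 17 alternatives, with adjusted p down to 0.0317 in limma.

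Among the 7 targets of the member set, Bdnf and Celsr3 had the largest increases in shRNA RUS that passed the test on day 7. Celsr3, an atypical cadherin of axon tracts (chr9:108826320-108852969, + strand), measured 7.98, 4.32, 5.85 and 6.76 in shRNA CON and 4.43, 4.13, 4.39 and 5.00 in shRNA RUS on day 5. The control libraries spread widely and took in the whole range of knockdown libraries but its lowest value. The log2 fold change of -0.43 (SE 0.17) did not pass (adjusted p = 0.0795). Celsr3 was called lower on day 5 in 3 of 17 alternatives, with adjusted p down to 0.00929 in limma. On day 7 it measured 11.4, 11.7, 12.5 and 14.0 against 17.8, 17.2, 18.2 and 19.5. The groups were apart, with a log2 fold change of 0.55 (SE 0.07, adjusted p = 1.64e-04). Celsr3 is the member whose window holds the RE1 match with the spacing searched first.

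Bdnf encodes the neurotrophin that signals through the receptor TrkB (chr2:109674700-109727007, + strand). On day 5 it was at 2.34, 2.23, 2.95 and 2.19 in shRNA CON and at 3.41, 3.44, 3.19 and 3.77 in shRNA RUS. On day 7 it was at 1.92, 2.11, 1.90 and 2.07 in shRNA CON and at 5.16, 4.58, 4.81 and 4.87 in shRNA RUS. The groups were apart on both days, and on day 7 the ratio of means was 2.43. The log2 fold change was 0.50 (SE 0.12, adjusted p = 0.0108) on day 5, a call lost with TPM as deposited and with the replicate number as a block, and 1.24 (SE 0.08, adjusted p = 2.48e-06) on day 7. The gene overlaps the antisense gene Gm45346. The use of strand in the counting is not given in the sources used here, so reads of the pair may not be told apart. Other members overlap annotated genes as well: Rest (Mir5098), Rcor1 (Gm46379 and Gm48632), Scg3 (Gm37871) and Celsr3 (Gm23156).

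Across the 10 genes, 4 were called higher on day 5 (Rest, Scg3, Vgf and Bdnf) and 3 lower (Rcor2, Chga and Chgb). Among all 22581 genes tested, 14.8% were called higher and 17.9% lower. With TPM as deposited no member was called higher on day 5 and 4 were called lower, and over all genes 1768 were higher and 6037 lower, against 3349 and 4034 after scaling. On day 7, 5 members were called higher (Rest, Rcor1, Scg2, Celsr3 and Bdnf) and 4 lower (Rcor2, Chga, Chgb and Scg3), among 24606 genes of which 23.4% were higher and 25.8% lower. Leaving out replicate 1, 3 or 4 of shRNA CON, or replicate 2 or 3 of shRNA RUS, left 2 members called higher on day 5, and leaving out replicate 1 of shRNA CON left 2 called lower on day 7. The 7 targets of Rest were thus divided on day 7, when Rest differed most: 3 were lower, 3 were higher and Vgf did not pass.

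**Figure D2:**
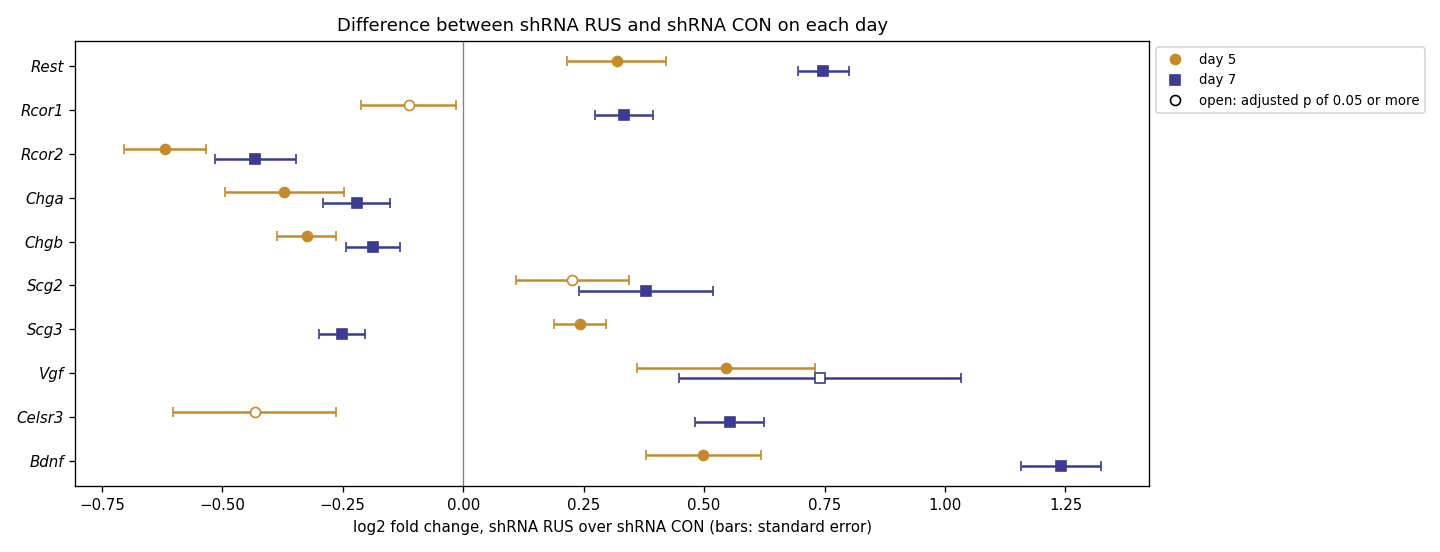
Log2 fold change of shRNA RUS over shRNA CON for each gene on day 5 (circles) and day 7 (squares), with the standard error of the limma fit as bars and open symbols where the adjusted p is 0.05 or more. Rest is to the right of 0 on both days, Chga and Chgb are to the left on both, and Scg3 changes side.

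The days were then compared under each shRNA, to ask how the genes moved while the cultures went from day 5 to day 7. The library factors of this fit went with the day, from 0.845 to 1.02 on day 5 and from 1.07 to 1.10 on day 7. With TPM as deposited the median log2 change over all genes was 0.20 in shRNA CON and 0.41 in shRNA RUS. After scaling it was 0.07 and 0.13, so changes of this size between the days depend on the scaling. In shRNA CON the genes with higher levels on day 7 were Rest (log2 change 0.43), Rcor1 (0.33), Chga (0.44) and Celsr3 (0.78), and 5 were lower, Chgb (-1.42), Scg2 (-0.68), Scg3 (-0.38), Vgf (-3.58) and Bdnf (-0.48). All 9 were called, with adjusted p up to 0.00378 for Rcor1, while Rcor2 at -0.04 was not. Of all 23789 genes, 26.9% were called higher and 21.6% lower. Rest thus rose over these 2 days in control cultures. Its targets were divided: 4 of the 5 granins and Bdnf fell, while Chga and Celsr3 rose.

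In shRNA RUS the same 4 genes rose, and by more in the case of Rest (0.85), Rcor1 (0.76) and Celsr3 (1.76). Chga rose by 0.58 and Bdnf by 0.24 (adjusted p = 0.0390). Chgb fell by 1.29, Scg2 by 0.54, Scg3 by 0.89 and Vgf by 3.40 on the log2 scale. Rcor2 (0.13, adjusted p = 0.194) did not pass. It was called higher with TPM as deposited and with scaling to the 75th percentile. Over the alternatives its log2 change reached 0.46 and its adjusted p in limma went down to 4.26e-04. The shares of all genes called were 35.0% higher and 25.8% lower. The call for Bdnf was lost in 9 of 25 alternatives, and that for Scg2 with TPM as deposited (adjusted p = 0.139 in limma). The log2 change of Scg3 ran from -0.91 to -0.41 over the alternatives.

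The fall of Vgf between the days was the largest change among the 10 genes. On the scale of the 16 libraries it went from 8.85 ± 1.61 to 0.671 ± 0.249 in shRNA CON and from 13.1 ± 2.98 to 1.17 ± 0.435 in shRNA RUS (SD, n = 4). Chgb went from 40.1 ± 1.25 to 15.0 ± 0.789 and from 32.0 ± 2.17 to 13.0 ± 0.576. In both genes the day 7 libraries lay below every day 5 library, whichever the shRNA.

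Whether the effect of the knockdown differed between the days was tested as an interaction in the fit over 16 libraries. It did for 5 of the 10 genes. The difference was positive for Celsr3 (0.97, SE 0.20, adjusted p = 0.00169), Bdnf (0.72, SE 0.14, adjusted p = 0.00111), Rcor1 (0.43, SE 0.12, adjusted p = 0.0111) and Rest (0.42, SE 0.11, adjusted p = 0.0115). It was negative for Scg3 (-0.51, SE 0.07, adjusted p = 8.90e-05). For Chga, Chgb, Scg2, Vgf and Rcor2 the difference ran from 0.13 to 0.18 and did not pass (adjusted p of 0.257 or more). With TPM as deposited Chgb passed as well (adjusted p = 0.0273 in limma). Of all genes, 15.2% had a positive and 14.6% a negative call, and all 5 member calls held in 25 of 25 alternatives. With TPM as deposited, 5700 genes had a positive and 2053 a negative call, against 3626 and 3464 after scaling.

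**Figure D3:**
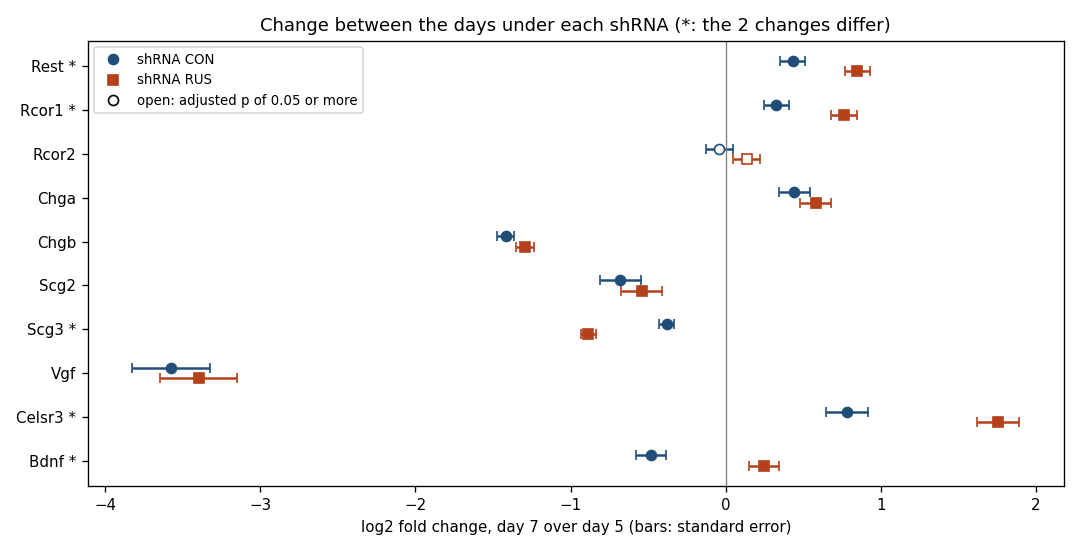
Log2 fold change of day 7 over day 5 for each gene in shRNA CON (circles) and shRNA RUS (squares), with standard errors as bars, open symbols where the adjusted p is 0.05 or more, and an asterisk where the interaction passed. Celsr3 rose by 0.78 under shRNA CON and by 1.76 under shRNA RUS, and Bdnf lies on opposite sides of 0.

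The partners of REST were looked at next, from a list of 22 genes for the SIN3, CoREST, G9a and SWI/SNF assemblies and the phosphatases that act on REST. On day 5 the test called 4 higher and 2 lower, where 14.8% and 17.9% of all genes were called. Their median log2 fold change was 0.05, against -0.06 for all genes, and it was -0.10, with 2 higher and 4 lower, for TPM as deposited. On day 7, 14 were called higher and 2 lower, the median was 0.25 against -0.03, and 13 to 15 were higher in the 17 alternatives. The shares over all genes on day 7 were 23.4% higher and 25.8% lower. The small phosphatase genes Ctdsp1 and Ctdsp2, whose products keep REST from degradation, stood at the top. Ctdsp1 went from 44.7 to 74.3 on day 5 and from 54.0 to 112 on day 7, log2 fold changes of 0.73 and 1.05 (adjusted p = 5.0e-05 and 3.42e-07). Ctdsp2 was higher by 0.29 and 0.72, and Phf21a, the CoREST subunit that reads unmethylated histone H3, by 0.67 on day 7.

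Hdac2, which encodes a deacetylase shared by CoREST and Sin3 assemblies, was lower on both days (-0.25, adjusted p = 0.0268, and -0.26, adjusted p = 0.00561) and its paralog Hdac1 on day 7 (-0.20, adjusted p = 4.36e-04) but not on day 5 (0.0014). Kdm1a, the demethylase of the complex, was higher on day 7 by 0.19 (adjusted p = 3.88e-04), and Rcor3 by 0.51. Gse1, another CoREST subunit, had a log2 fold change of -0.62 on day 5 (adjusted p = 0.00836) and of 0.34 on day 7 (adjusted p = 0.00132). Sin3b was higher on day 5 (0.45, adjusted p = 0.00796) and did not pass on day 7 (-0.08).

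Of 6 genes that set the level of REST protein or its splicing, Fbxw11, a ubiquitin ligase subunit, was lower on both days (-0.32, adjusted p = 0.00329, and -0.20, adjusted p = 0.00106). Prickle1, which binds REST and affects its transport into and out of the nucleus, was higher on both (0.53, adjusted p = 0.00883, and 0.45, adjusted p = 0.0136). The deubiquitinase gene Usp7 was higher on day 7 by 0.13 (adjusted p = 0.0269). Btrc, Usp15 and Srrm4, whose product makes the neuronal Rest isoform, passed on neither day. REST protein was not measured.

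A list of 26 further RE1 target genes was followed on both days. On day 5, 21 passed the filter on low values, 1 was called higher and 5 lower (3 to 9 lower in the alternatives), and the median was -0.23, beside 14.8% and 17.9% of all genes. With TPM as deposited the median was -0.38 and 9 were lower. On day 7, again 21 passed the filter, 9 were called higher and 3 lower (8 to 10 higher in the alternatives), and the median was 0.17, beside 23.4% and 25.8% of all genes. In the interaction, 11 of 22 had a positive call and 1 a negative one, with a median of 0.51 against 0.04 for all genes, beside the 15.2% and 14.6% given above.

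The largest increases called on day 7 in this list were those of Grin1, L1cam and Snap25. Snap25, the vesicle fusion protein, was at 19.1 against 29.2 (0.61, adjusted p = 3.09e-04), Grin1, the obligate NMDA receptor subunit, at 3.57 against 6.63 (0.88, adjusted p = 5.93e-05), and L1cam, an axonal adhesion molecule, at 5.43 against 8.88 (0.73, adjusted p = 0.00562). On day 5 Snap25 (-0.06), Grin1 (0.26) and L1cam (-0.35) had not passed. Of the 6 genes printed above with an RE1 match, 5 were called higher on day 7, namely Celsr3 and Scg2 with the values given above, Syn1 (0.48), Chrm4 (0.47) and Unc13a (0.46), beside 23.4% of all genes. With so few genes this share is given as a description. Unc13a had been lower on day 5 (-0.54), and Gria2 (-0.28 and -0.09) passed on neither day. The matches of Scg2 and Unc13a come from the wider search. Calb1, a calcium buffer, was lower by 0.98 and 1.22 on days 5 and 7, and Stmn2, a microtubule regulator, was higher on day 5 (0.58) and lower on day 7 (-0.14, adjusted p = 0.0256). Mapk8ip2 (-0.72) and Scn2a (-0.41) were lower on day 5, and Tubb3 passed on neither day.

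The remaining machinery of dense-core vesicles, 18 genes, had 4 calls higher and 3 lower on day 5 (median -0.0021, and -0.16 with TPM as deposited) and 7 higher and 2 lower on day 7 (median 0.17). The shares of all genes called higher and lower were 14.8% and 17.9% on day 5 and 23.4% and 25.8% on day 7. Pam, which amidates peptides, was higher on both days (0.50, adjusted p = 7.26e-04, and 0.64, adjusted p = 1.63e-06), and so was the carboxypeptidase Cpe (0.43 and 0.42). Vamp2 (0.67) and Stx1a (0.48), parts of the fusion machinery, were higher on day 7. Pcsk2, a convertase that cuts granins, was lower on day 7 (-0.88, adjusted p = 5.39e-04). The vesicle membrane proteins Ptprn (-0.67) and Ptprn2 (-0.55) were lower on day 5, Ptprn2 on day 7 as well (-0.19), and the convertase chaperone Scg5 was higher on day 5 (0.28). Calls in both directions were thus found among the granins and among their processing enzymes.

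**Figure D4:**
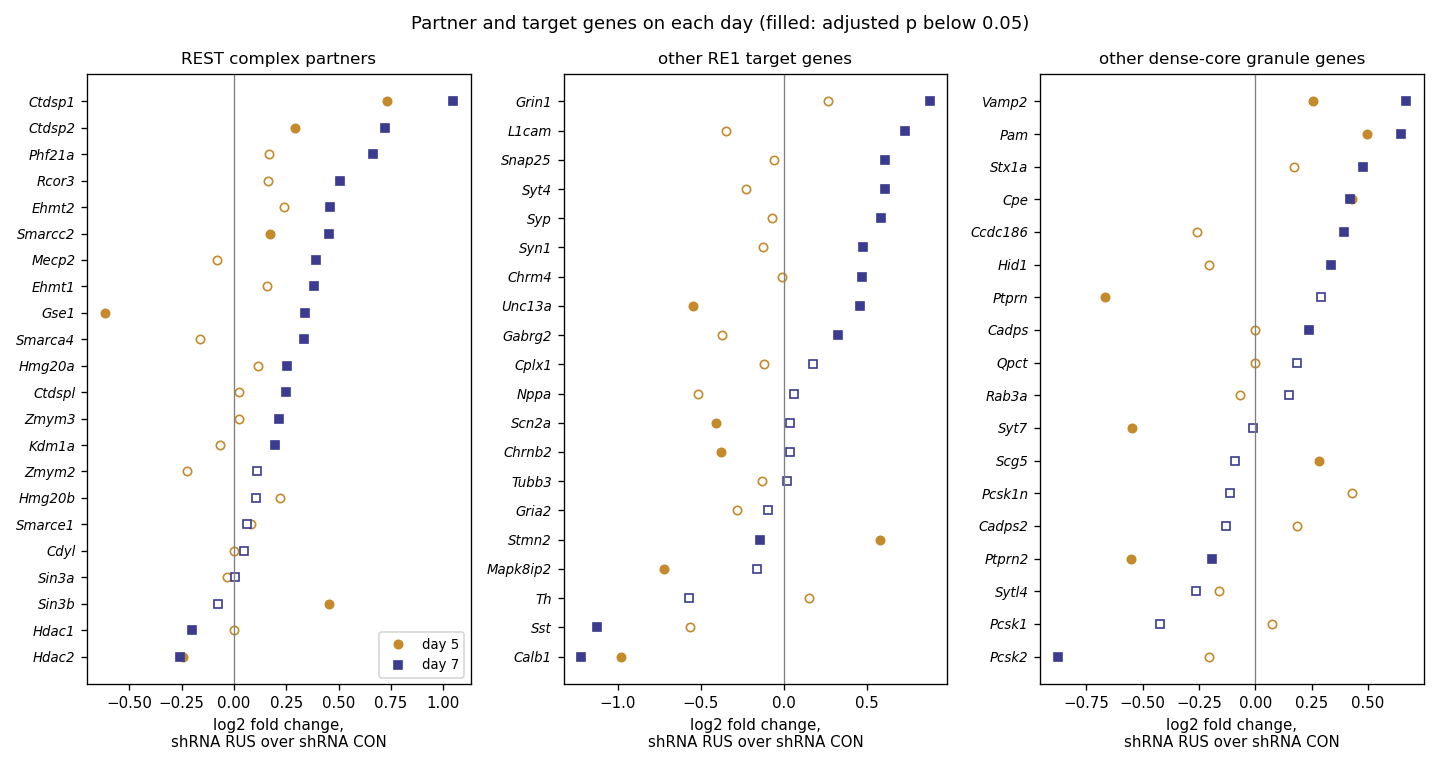
Log2 fold change of shRNA RUS over shRNA CON for REST partners (22 genes), further RE1 targets that passed the filter on both days (20 genes) and further dense-core vesicle genes (18 genes), on day 5 (circles) and day 7 (squares), filled where the adjusted p is below 0.05. In the RE1 panel most day 7 squares lie to the right of the day 5 circles of the same gene.

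Among the partners of Bdnf and Celsr3, 10 genes, none was called higher and 4 were called lower on day 5, and 1 was higher and 3 were lower on day 7, beside 14.8% higher and 17.9% lower over all genes on day 5 and 23.4% and 25.8% on day 7. The TrkB gene Ntrk2 passed on neither day (-0.11 and -0.08). Sort1, a sorting receptor for neurotrophins, was higher on day 7 (0.45, adjusted p = 3.59e-06). The paralogs Celsr1 (-0.31) and Celsr2 (-0.55) were lower on day 5 and did not pass on day 7, and Vangl2 of the planar polarity pathway was lower on both days (-0.31 and -0.36).

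Markers of cell types moved alongside these genes, and in bulk RNA fewer cells of a type and less RNA per cell cannot be told apart. The marker counts that follow stand beside 14.8% of all genes called higher and 17.9% lower on day 5, and 23.4% and 25.8% on day 7. The summed level of 12 neuron markers overlapped between the groups on both days, at 557 to 649 and 584 to 644 on day 5 and at 812 to 904 and 808 to 947 on day 7. Of these 12, 3 were called higher and 3 lower on day 5, and 5 higher and 4 lower on day 7. Mapt (0.35 and 0.87) and Syt1 (0.33 and 0.57) were higher on both days, and Elavl4 (-0.93 and -0.41) and Map2 (-0.46 and -0.23) were lower on both. In the interaction 4 of the 12 had a positive call and 1 a negative one, with a median of 0.36 against 0.04 for all genes. Snap25, Stmn2 and Tubb3 are in this list and among the RE1 targets. Of 8 neural stem cell markers 3 were higher and 2 lower on day 5 and 2 higher and 4 lower on day 7, with Nes lower on both days (-0.87 and -1.19). Their sum was 12513 to 14661 in shRNA CON and 17784 to 21280 in shRNA RUS on day 5, and overlapped on day 7 (6864 to 7115 and 7050 to 7711). The sum on day 5 follows its most abundant genes, Vim (8447 against 12424) and Fabp7 (3328 against 4743), and does not stand for the list, in which Hes5 (-0.67) was lower as well as Nes. Of 7 astrocyte markers 2 were higher and 1 lower on day 5 and 3 higher and 1 lower on day 7, with Gfap at 1700 against 2571 on day 5 and 664 against 848 on day 7. The astrocyte sum was apart on both days, at 4484 to 4687 against 6016 to 6381 and at 2603 to 2681 against 3278 to 3422. Gfap and Aldoc (1221 against 1815 on day 5 and 1094 against 1672 on day 7) carry most of this gap, while Slc1a2 was lower on day 5 (-0.65) and S100b on day 7 (-0.54).

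Oligodendrocyte lineage markers were lower in 4 of 8 cases on day 5 and in 6 of 8 on day 7 (17.9% and 25.8% of all genes), when their sum was 375 to 412 in shRNA CON and 239 to 263 in shRNA RUS. Microglia markers were lower in 8 of 8 cases on day 7, with a sum of 292 to 320 against 137 to 169, and 1 was higher and 2 were lower on day 5. Of 8 fibroblast and vascular markers 6 passed the filter, 3 were higher on day 7 (Pdgfrb 1.32, Col1a1 1.23 and Col3a1 0.93) and Kdr was lower (-1.30). On day 5 Pdgfrb was higher (0.32) and Kdr lower (-0.91). The part of these cell type markers in the results on Rest and its targets was not tested. Endocrine markers, which would mark cells rich in granins, summed to between 1.09 and 3.43. Of this list of 6, Gh1 was not found, Pomc alone passed the filter and was lower on day 7 (-0.78), and Ins2 and Pnmt were listed at 0 in all libraries of day 5.

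The genes most like Rest over the 16 libraries were Fnbp1, Ppm1l, Klhl29, Ston1 and Prr14l. Likeness was measured as the root mean square difference of centred log2 levels. It was computed for the 15898 genes that averaged 1 TPM or more, and it ran from 0.07 to 0.10 for these 5. Fnbp1 was at 90.6 ± 4.63, 112 ± 12.7, 115 ± 7.98 and 191 ± 10.6 (SD, n = 4) in the same order of groups as given for Rest above. Its level therefore rose along that order too. Of the other members, Rcor1 came nearest to Rest, at rank 610 with a difference of 0.23, then Bdnf (rank 5023), Celsr3 (rank 5270) and Chga (rank 5702), and Vgf was farthest (rank 15723). The 5 genes most like Scg2 were Taf9b, Nxph1, Dnajc28, Surf2 and Nsa2, with differences from 0.12 to 0.15, and Scg3 was the nearest member, at rank 1465.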

How the data were processed

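The 16 RNA-seq libraries, 4 for each shRNA and day, were grouped by the labels. PolyA RNA was sequenced by the authors on an Illumina NextSeq platform. Reads were mapped by STAR against mm10 with the GRCm38.99 transcripts, and RSEM gave the abundances. Versions are not given in the sources used here. The authors deposited TPM per library in 1 table per day, beside columns of their own DESeq2 comparison. These deposited columns hold a log2 fold change with its error, a test statistic (a score), p-values and a mean of normalized signal (base mean), and they were not used. Labels and methods differ on the FGF2 (bFGF) and GlutaMAX concentrations of the medium. TPM keeps no read number, so no detection limit is given and precision rests on the replicates.

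For each fit the factor of a library was the median, over genes that reach 1 TPM in all its libraries, of the ratio to the geometric mean. TPM were divided by this factor, and log2(TPM + 0.1) was tested with limma 3.58.1 in R 4.3.3 (lmFit, eBayes with a trend, two-sided, Benjamini-Hochberg, threshold 0.05) for genes averaging 0.1 TPM or more. Fold changes are on this log2 scale, which understates changes of low genes. The 8 libraries of a day were fitted for the knockdown, and all 16 for the days and the interaction, leaving out 106 of 55471 lines whose symbols differ or are missing. The test was checked on simulated data with independent noise for each gene. These data held no library-wide shift such as that of the day 5 factors, so the check does not cover it. Exact permutations, summaries, the motif search and plots used Python 3.11.15 with matplotlib 3.10.9, scipy 1.17.1, pandas 2.3.3 and numpy 2.4.6. Gene positions are from GENCODE vM21 and promoter windows from RefSeq (GRCm38.p6), by symbol.

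The members and the gene lists were chosen with earlier results of these data known. Genes named in the text are the 10 members, Gm20754, up to 3 called genes in each direction per list and day averaging 1 TPM or more (not all of them are reported here), Snap25, Tubb3, Nes and Gfap, and the 5 genes nearest to Rest and to Scg2. Other list genes were named after their values were seen. Alternatives were other pseudocounts, filters and scalings, a block for the replicate number, eBayes without a trend, and leaving out each library. A search within 5000 bases of gene starts and a description of the granin proteins had been planned and were not run.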

Additional observations from a re-analysis of the deposited data

Results flagged for a closer look

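Chance alone meets Dixon's criterion in about 1 of 20 independent groups. The 40 groups of 4 libraries tested here share libraries between genes and are not independent. In 5 of them, 1 library lay far from the other 3 by this criterion. For Rest these were replicate 1 of shRNA CON on day 5, at 5.67 against 5.21 to 5.24 in the others, replicate 4 of shRNA RUS on day 5, at 8.16 against 6.16 to 6.33, and replicate 1 of shRNA RUS on day 7, at 13.7 against 14.5 to 14.6 (scaled TPM). For Rcor1 it was again replicate 4 of shRNA RUS on day 5, at 10.1 against 8.26 to 8.36. For Vgf it was replicate 3 of shRNA RUS on day 7, at 1.99 against 0.971 to 1.12.

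The effect of the knockdown differed between the days in the interaction test for 5 members. The difference on the log2 scale, day 7 minus day 5, was 0.42 for Rest, 0.43 for Rcor1, -0.51 for Scg3, 0.97 for Celsr3 and 0.72 for Bdnf.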

How the results depend on the processing

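By the calls of members, day 7 and the comparisons between days were steadier than day 5, though the sizes of changes between the days depend on the scaling. Members called higher on day 5 numbered 4, but 2 without a filter, 0 with TPM as deposited, 1 with scaling to the 75th percentile, 2 with eBayes without a trend, 1 with the replicate block, and 2 to 4 when single libraries were left out. Members called lower on day 7 numbered 4, and 2 to 4 when single libraries were left out. Over all genes, the count called higher on day 5 was 3349, against 2231 with the replicate block and 1768 with TPM as deposited. With TPM as deposited, 3545 genes were called lower between the days in shRNA RUS, against 6135. Small changes that did not pass the test turned sign: Rcor1 on day 5 was 0.0059 with quantile normalization, Rcor2 between the days in shRNA CON was 0.11 with TPM as deposited, 0.033 with the 75th percentile and -0.11 to 0.016 with single libraries left out (0.016 without replicate 4 of day 5), and in shRNA RUS -0.014 with quantile normalization, and the interaction of Vgf was -0.13 with a pseudocount of 1 and -0.040 to 0.34 with single libraries left out (-0.040 without replicate 3 of shRNA RUS on day 7). The cause was not tested. Counting each member's result once per alternative, 1005 repeats kept direction and side of the threshold, 68 lost and 10 gained a call, and 7 turned sign. Of the repeats of counts over all genes, 213 stayed within 1.5 times.

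Replicate numbers gave no clear sign of paired samples. Deviations of same-numbered libraries correlated by -0.25 to -0.02 on day 5 and by 0.02 to 0.10 on day 7. On these days 0 of 4 and 2 of 4 numbers, respectively, correlated best with their own. With 4 libraries in a group this cannot settle whether same-numbered cultures were handled together, which the labels do not state.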
